A study of Homo sapiens with 2 samples.

Results

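The genes examined here were 10 genes by which epithelial and mesenchymal cells are commonly told apart: CDH1, CDH2, EPCAM, ESRP1, ESRP2, ZEB1, ZEB2, SNAI2, TWIST1 and GRHL2. They were taken by name, and all 10 had a row among the 57736 genes of both libraries. The samples were 2 replicates of untreated, wild-type HEK293T, a human embryonic kidney line that carries the SV40 large T antigen, grown in serum to near confluence. Poly(A)+ RNA was sequenced with reads of 50 bases, which gave 10593491 estimated counts over all genes in replicate 1 and 10104118 in replicate 2. The data form 1 group, so no condition was compared with another. Nothing in the labels says that the replicates came from separate cultures, so the spread between them may be technical. Of 13 kidney markers, 2 (LRP2 and PAX2) were detected, and UMOD and AQP2, which mark tubules and collecting ducts, had no counts.

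Epithelial cells are held together by junctions built on E-cadherin, which CDH1 encodes, and mesenchymal cells carry N-cadherin, the product of CDH2, and move singly. The passage from the first state to the second is called epithelial-mesenchymal transition (EMT). It is driven by the repressors ZEB1, ZEB2, SNAI2 and TWIST1, which act on CDH1 and other epithelial genes, and it is opposed by GRHL2, an activator of epithelial genes that acts against ZEB1. ESRP1 and ESRP2 are RNA-binding proteins that impose the epithelial pattern of splicing, and EPCAM is an adhesion protein of the epithelial surface.

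CDH2 and all of the repressors were detected in both libraries, while the epithelial genes were divided. ESRP2 stood level with the repressors, CDH1 and EPCAM were low, ESRP1 had 4 counts over both libraries and GRHL2 had none. TPM gives the share of a transcript among all transcripts after division by length, so that levels of different genes in a library can be compared. The limit for detection was a TPM of 1, to be reached in each of the replicates. By this rule 8 of the 10 genes were detected, against 27.7% of all genes and 63.7% of protein-coding genes. The median of the 10 genes was 3.90 as log2(mean TPM + 1), against 2.91 for protein-coding genes and 0.10 for all genes.

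**Figure D1:**
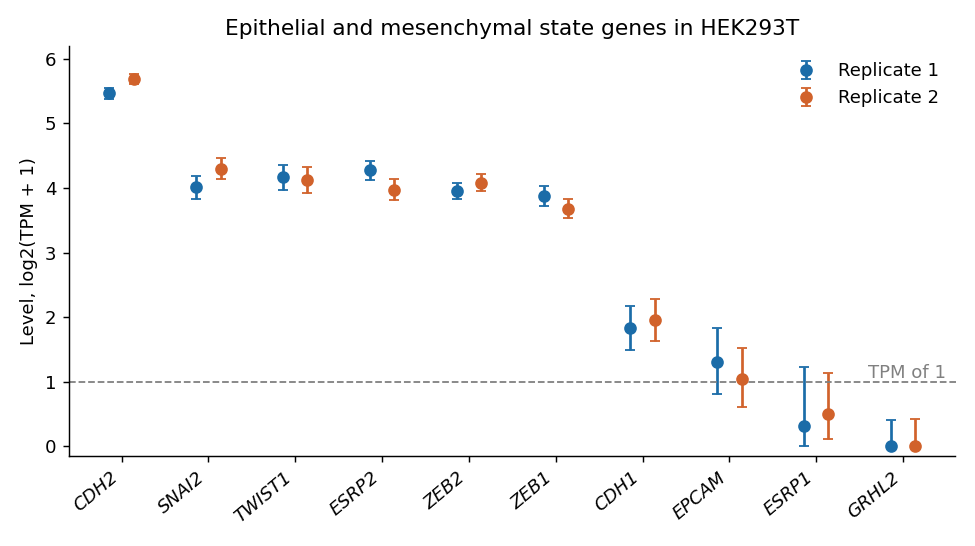
Level of each gene as log2(TPM + 1) in replicate 1 (blue) and replicate 2 (orange), ordered by mean TPM; bars are exact 95% Poisson intervals of the count, converted to TPM. CDH2 lies highest, 5 genes follow with mean TPM values from 12.7 to 16.9, and CDH1, EPCAM, ESRP1 and GRHL2 lie lower, with ESRP1 and GRHL2 under the dashed line at a TPM of 1.

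CDH2 was the highest of the 10 genes, and its TPM was 43.2 in replicate 1 and 50.7 in replicate 2. Its mean of 46.9 ± 5.35 (SD, n = 2) was above that of 83.4% of protein-coding genes. CDH2 (ENSG00000170558) lies on chromosome 18 from 25512843 to 25757910 on the minus strand (GRCh37).

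CDH1, on chromosome 16 from 68771195 to 68869440 on the plus strand, had a TPM of 2.57 in replicate 1 and 2.87 in replicate 2, with a mean of 2.72 ± 0.212 (SD, n = 2). These values rested on 38 and 45 estimated counts, and the exact 95% Poisson interval ran from 1.82 to 3.53 TPM in replicate 1 and from 2.10 to 3.85 in replicate 2. CDH1 was low, and both intervals stayed above a TPM of 1 at the transcript length used in the deposited values. With its longest listed transcript CDH1 had 1.07 in replicate 1 and 1.31 in replicate 2, where no interval was computed. The intervals describe counting error alone, because PCR copies of a molecule are counted as separate reads.

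The cadherin pair was therefore read as a ratio within each library. CDH2 exceeded CDH1 by 16.8-fold in replicate 1 and by 17.7-fold in replicate 2 in TPM. On the log2(TPM + 1) scale, which understates the change of a low gene, the difference was 3.68 ± 0.0789 (SD, n = 2). It was many times the spread between the replicates. No test was run on it, since an exact permutation test over 2 libraries cannot reach 0.05. The fold depends on the transcript length divided by, and it was 36.0 and 32.8 with the longest listed transcript of each gene and 30.0 and 27.3 without scaling by length.

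Among 22 classical and related cadherins, 5 were detected. CDH24 was second to CDH2 at a TPM of 5.81 ± 0.205 (SD, n = 2), ahead of CDH1. CDH3, the P-cadherin of epithelia, had 1.38 ± 0.127 and CDH26 had 1.35 ± 0.311 (SD, n = 2). CDH18 and CDH8 passed a TPM of 1 in replicate 1 only. A total of 8 of the 22 had no counts in either library, among them CDH11, a mesenchymal cadherin, CDH5 of endothelium and CDH16 of kidney. Of the 22 genes, CDH2 alone was above a TPM of 10 in both libraries.

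**Figure D2:**
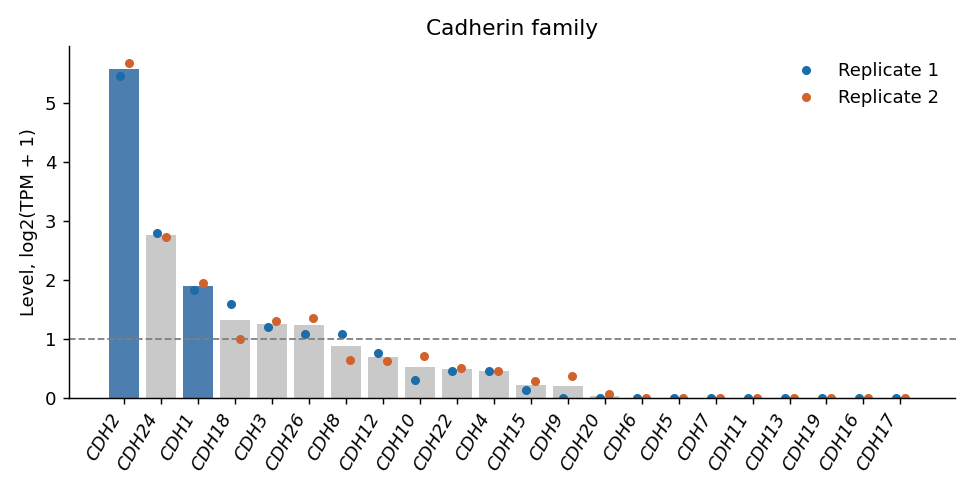
Level of 22 cadherin genes as log2(TPM + 1), ordered by the mean; bars give log2(mean TPM + 1), points the 2 replicates, and CDH1 and CDH2 are in blue. CDH2 stands at a mean TPM of 46.9, CDH24 at 5.81 and CDH1 at 2.72, and 8 cadherins have no counts.

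The catenins and other cytoplasmic partners of cadherins were abundant in part. Of 8 such genes 5 (62.5%) were detected, close to the 63.7% of protein-coding genes. All 5 had a TPM of at least 10. The highest were CTNNB1 (beta-catenin) at 229.7 ± 1.55, CTNNA1 (alpha-catenin) at 149.6 ± 20.5 and CTNND1 (p120-catenin) at 65.5 ± 1.69 (SD, n = 2). VCL and JUP were at 59.4 ± 3.58 and 31.8 ± 3.64 (SD, n = 2). The neural forms CTNND2 and CTNNA2 were not detected, nor was CTNNA3 of heart and testis, which had 1 and 4 counts.

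EPCAM, on chromosome 2 from 47572297 to 47614740 on the plus strand, had a TPM of 1.47 in replicate 1 and 1.05 in replicate 2, from 12 and 11 counts. Its exact intervals, 0.759 to 2.57 and 0.522 to 1.87 TPM, both held the threshold of 1, so whether EPCAM counts as detected was not settled at this depth. By FPKM, which is not rescaled to a common total, it was 1.03 and 0.74 and so passed in replicate 1 only. EPCAM was lower than CDH1 in both libraries, but their exact intervals overlapped in replicate 1. With the longest transcript EPCAM had a TPM of 1.07 in replicate 1, the same as CDH1, and 1.03 in replicate 2, against 1.31 for CDH1.

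The genes that act on the EPCAM protein were present. EPCAM is cut at the membrane by ADAM17 and then by gamma-secretase, of which PSEN2 can be a part, and its released tail binds FHL2. ADAM17 had a TPM of 15.5 ± 0.495, PSEN2 28.7 ± 0.700 and FHL2 10.7 ± 0.460 (SD, n = 2). CLDN7, a claudin that binds EPCAM, had TPM values of 0.35 and 1.15. Of 8 partners and relatives of EPCAM in all, 6 were detected.

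The paralogous splicing regulators were far apart. ESRP2, on chromosome 16 from 68262936 to 68272005 on the minus strand, had a TPM of 18.4 in replicate 1 and 14.7 in replicate 2 (341 and 287 estimated counts), a mean of 16.6 ± 2.60 (SD, n = 2). ESRP1, on chromosome 8 from 95653302 to 95719694 on the plus strand, had 1 count in replicate 1 and 3 in replicate 2, listed as TPM values of 0.24 and 0.41. The exact interval of ESRP1 reached up to 1.33 TPM in replicate 1 and 1.19 in replicate 2, while that of ESRP2 began at 16.5 and 13.1. The intervals of the pair lay far apart in both libraries. The difference on the log2(TPM + 1) scale was 3.72 ± 0.346 (SD, n = 2), and its size in fold is uncertain because ESRP1 had so few counts.

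Regulators that act on the same switched exons were expressed above ESRP2. PTBP1 had a TPM of 626 ± 39.3, QKI 112 ± 2.14, RBFOX2 88.1 ± 3.66 and MBNL1 81.8 ± 0.877 (SD, n = 2). Among genes whose exons the ESRPs switch, ENAH was highest at 212.7 ± 4.16, CTNND1 is given above, and FGFR2 had TPM values of 14.7 and 15.6. CD44 was the exception, with 2 counts in replicate 1 and 0 in replicate 2. The tables give genes and not single exons, so the splicing of these genes was not examined. Of the 12 regulators and targets, 11 were detected.

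With the estimated mix of isoforms, the repressors formed a narrow band. ZEB1 fell from it when the longest transcript was used (mean TPM of 6.92), but ZEB2 was not scaled to its canonical transcript. SNAI2 (Slug) had a TPM of 15.1 in replicate 1 and 18.7 in replicate 2, a mean of 16.9 ± 2.53 (SD, n = 2), and lies on chromosome 8 from 49830157 to 49834299 on the minus strand. TWIST1, a basic helix-loop-helix factor on chromosome 7 (19060614 to 19157259, minus strand), had 17.0 and 16.4, a mean of 16.7 ± 0.361 (SD, n = 2). The zinc finger factor ZEB2, on chromosome 2 from 145121931 to 145278624 on the minus strand, had 14.5 and 15.9, a mean of 15.2 ± 1.03. Its relative ZEB1, on chromosome 10 from 31607424 to 31818742 on the plus strand, had 13.7 and 11.8, a mean of 12.7 ± 1.35 (SD, n = 2). Each of these 4 repressors was above both replicate values of CDH1.

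Neighbours within this band could hardly be ordered. SNAI2 and TWIST1, TWIST1 and ESRP2, and ESRP2 and ZEB2 overlapped in their replicate values. The other 6 pairs of neighbours in the order CDH2, SNAI2, TWIST1, ESRP2, ZEB2, ZEB1, CDH1, EPCAM, ESRP1, GRHL2 did not overlap. This is a description with 2 values on each side and no test. For the lowest genes it rests on few counts. The exact intervals of EPCAM and ESRP1 overlapped in both libraries, and so did those of ESRP1 and GRHL2. The ZEB pair was apart by 0.0765 in replicate 1 and by 0.41 in replicate 2 on the log2(TPM + 1) scale. Its mean difference of 0.24 ± 0.233 (SD, n = 2) was about the size of its spread.

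Of the other factors of this kind, some were lower than the 4 repressors, some were higher and some lay near them. SNAI1 (Snail), the closest relative of SNAI2, had TPM values of 1.56 and 1.02, and TWIST2 had 2.14 and 3.58, both under every value of SNAI2 and TWIST1. The E proteins, with which TWIST1 pairs, were led by TCF3 at 99.1 ± 6.16 (SD, n = 2). The ID proteins, which bind E proteins and keep them from DNA, were led by ID2 at 204.7 ± 0.750 and ID3 at 71.7 ± 4.56 (SD, n = 2). SNAI3, FOXC2 and KLF8 were the 3 of 14 such factors that were not detected. All 9 cofactors that ZEB and SNAI proteins recruit were detected, with HDAC2 highest at 243 ± 8.51, HDAC1 at 219 ± 6.12 and the demethylase KDM1A at 140.0 ± 12.8 (SD, n = 2). Of 11 genes of the TGF-beta route, which induces the repressors, 10 were detected, with SMAD4 at 34.6 ± 0.580, SMAD2 at 31.0 ± 3.22 and TGFB1 at 24.9 ± 0.240 (SD, n = 2). The ligand gene TGFB2 was not detected, with 17 and 18 counts and TPM values under 1.

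The ZEB mRNAs are known targets of the microRNAs of the miR-200 family, which are abundant in epithelia and are themselves repressed by ZEB proteins. The mature sequences of 5 members (RefSeq, GRCh38.p14) are given so that the letters that pair with them in the ZEB messages can be followed. They are written 5′ to 3′ with the seed, bases 2 to 8, in capitals, and they fall into 2 seed groups that differ by 1 base.
miR-200b-3p: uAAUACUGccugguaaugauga
miR-200c-3p: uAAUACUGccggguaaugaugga
miR-429: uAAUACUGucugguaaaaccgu
miR-200a-3p: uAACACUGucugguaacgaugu
miR-141-3p: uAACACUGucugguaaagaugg

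The complement of the first seed, CAGTATT, was searched on the transcribed strand of the canonical ZEB1 and ZEB2 transcripts (GENCODE release 44 on GRCh37). It occurred 6 times in the 2540 bases after the stop codon of ZEB1 and 5 times in the 5370 bases after that of ZEB2. The complement of the second seed, CAGTGTT, occurred 3 and 4 times. Stretches of the same length after the stop codons of protein-coding genes, the gene itself included, were searched too. CAGTATT was found at least once in 27.7% of 4482 genes for the ZEB1 length and in 47.7% of 1110 genes for the ZEB2 length. CAGTGTT was found at least once in 30.1% and 50.9%. How many genes held several matches was not counted, so these shares do not rank the numbers in ZEB1 and ZEB2. These are matches of letters and not tested sites. A match of the first seed from each gene is shown, with the pairing letters in capitals, at chr10:31817490-31817512 (plus strand) and chr2:145146198-145146220 (minus strand) in GRCh37, which lie in the 3′ untranslated regions.
ZEB1: tgtcttcaaacctggCAGTATTa
ZEB2: ttgaagcacccatgtCAGTATTa

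The rows listed for the loci of these microRNAs had no counts. MIR200A, MIR200B, MIR429, MIR200C and MIR141 had 0 counts in both libraries, and so did MIR200CHG, the host transcript of MIR200C and MIR141. Of 7 loci with a row, counts were found for MIR205HG alone, the host of another microRNA that targets the ZEB genes, with 0 and 2 counts. Libraries of poly(A)+ RNA do not capture mature microRNAs. The rows named for single microRNAs are precursors, and only MIR200CHG and MIR205HG are host transcripts. A count of 0 in the precursor rows therefore does not show that a locus was silent. For MIR200CHG it says that no read of this host transcript was found at this depth.

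GRHL2 had 0 counts in both libraries. It lies on chromosome 8 from 102504667 to 102681954 on the plus strand, and 3 counts, the limit that a count of 0 allows, would have been a TPM of 0.262 in replicate 1 and 0.272 in replicate 2. The exact 95% Poisson interval, which is two-sided, reached up to 0.322 and 0.334. Its relative GRHL1 was detected at 4.83 ± 1.28 (SD, n = 2), while GRHL3 had TPM values of 0.45 and 0.62. Of 14 other factors of epithelial gene expression with a row, 5 were detected. KLF5 had a TPM of 31.3 ± 1.46, GATA3 15.6 ± 4.49 and FOXA1 10.2 ± 0.622 (SD, n = 2), and the remaining pair was GRHL1 and KLF4. OVOL2 and EHF, like GRHL2, had no counts, and OVOL1 had 1 count in each library. Factors tied to epithelial identity were thus present in part and absent in part, as were the member genes.

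The wider epithelial and mesenchymal genes were mixed as well. Of 30 further epithelial genes 11 (36.7%) were detected, and of 30 further mesenchymal genes 14 (46.7%), both below the 63.7% of protein-coding genes. The medians were 0.75 and 1.14 as log2(mean TPM + 1), against 2.91 for protein-coding genes. The highest epithelial genes were DSP (desmoplakin of desmosomes) at a TPM of 47.8 ± 0.0283, LSR of tricellular junctions at 42.0 ± 0.559 and the protease inhibitor SPINT2 at 40.3 ± 0.219 (SD, n = 2). DSP and LSR thus reached about the level of CDH2 and far exceeded CDH1. TJP3, MARVELD3 and AP1M2 passed a TPM of 1 in 1 replicate only, and RAB25, MAL2 and SPINT1 had no counts.

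The highest mesenchymal gene was VIM, the intermediate filament vimentin, with a mean TPM of 338 ± 8.81 (SD, n = 2). Next came SPARC, a matrix protein, at 47.0 ± 5.81 and FN1 (fibronectin) at 17.6 ± 0.417 (SD, n = 2). Some genes usual in fibroblasts were missing. FAP had no counts and COL1A2 had 1 count in each library, although COL1A1, which encodes the other chain of type I collagen, had TPM values of 10.3 and 7.51. COL3A1 and LUM passed a TPM of 1 in replicate 2 only. None of 5 blood and endothelial markers with a row was detected.

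**Figure D3:**
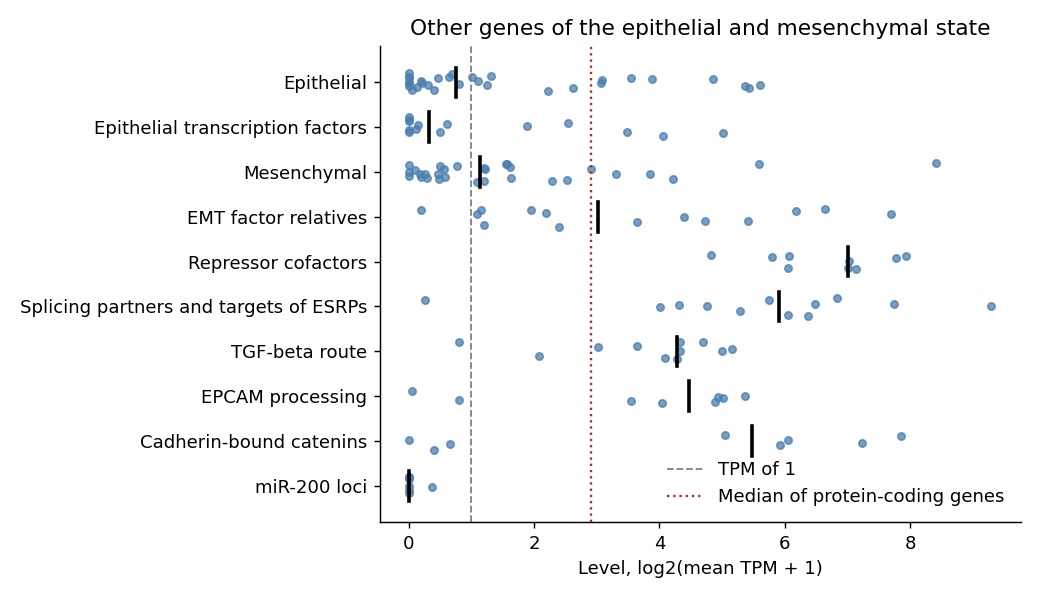
Level of the genes of 10 lists as log2(mean TPM + 1) over the 2 replicates; each point is a gene, black bars are list medians, the dashed line is a TPM of 1 and the dotted line the median of protein-coding genes at 2.91. The epithelial and mesenchymal lists spread from 0 counts to their highest genes DSP and VIM, and the repressor cofactors have the highest median, 7.01.

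TPM depends on the transcript length that is divided by, and this length comes from the estimated mix of isoforms. The mean transcript length used for CDH1 was 2030 nt in replicate 1 and 2228 nt in replicate 2, whereas its longest listed transcript has 4811 nt. Rescaled to that transcript, CDH1 had a TPM of 1.07 and 1.31. ZEB1 was moved in the same way, from a mean of 12.7 to 6.92, since its mean length was 3043 and 3848 nt and its longest transcript 6250 nt. The rescaled mean of ZEB2 was 11.5, and the ZEB2 minus ZEB1 difference then grew to 0.66. For ZEB2, 25 of 28 listed transcripts had a length, and the longest of these had 5361 nt. That is less than the 5370 bases after the stop codon of its canonical transcript. Scaling to the canonical transcript was not done, so this difference holds for the listed lengths only. SNAI2 and TWIST1, with nearly a single transcript each, kept means of 16.2 and 16.4. All of the 8 detected genes stayed at or above a TPM of 1. For ESRP1 the single read of replicate 1 was assigned to a transcript of 609 nt, although the longest has 3768 nt.

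**Figure D4:**
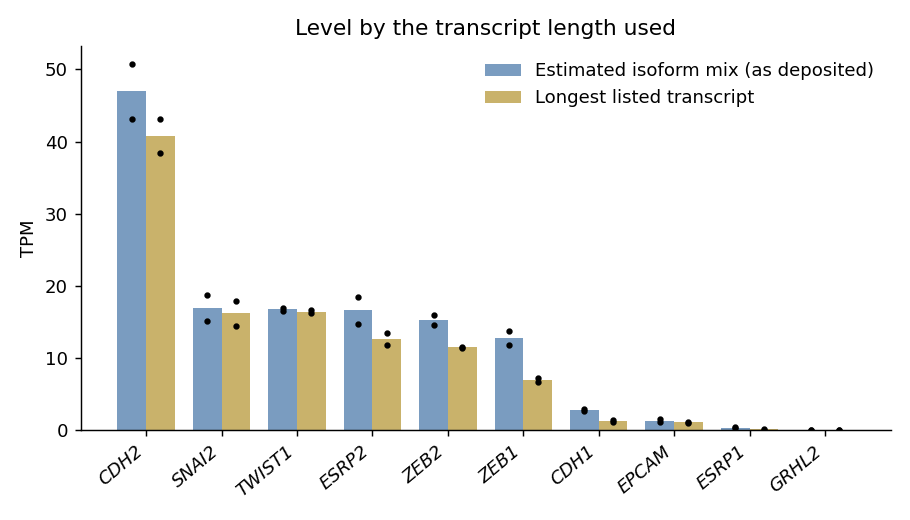
TPM of each gene with the estimated isoform mix (blue) and rescaled to its longest listed transcript (yellow); bars are means and points the 2 replicates. ZEB1 falls from 12.7 to 6.92 and CDH1 from 2.72 to 1.19, while SNAI2 and TWIST1 change little.

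For each gene the counts of the replicates were set against each other in an exact binomial test (two-sided), which compares these libraries and not conditions. With Benjamini-Hochberg adjustment over all 17920 genes tested, 3.88% were called different at 0.05. Of the 10 genes 8 had enough counts, at least 10 in sum, to be tested. CDH2 was called, with a ratio of replicate 2 to replicate 1 of 1.14 (95% interval 1.05 to 1.23) and an adjusted p of 0.0467 by this exact test. CDH2 did not pass in any other setting in which it was tested, with adjusted p-values of 0.0680 to 0.107 by the exact test. It was not tested among genes with whole counts, where none of 3 members passed. SNAI2 had the largest ratio, 1.26 (1.05 to 1.51), with an exact p of 0.0110 that did not pass adjustment (0.158). The remaining 6 intervals held a ratio of 1, that of ZEB2 being 0.875 to 1.14 and that of EPCAM 0.387 to 2.40. Among the listed genes beside the members, JUP (753 and 600 counts, exact adjusted p of 0.0435) and MBNL1 (1187 and 1318 estimated counts, exact adjusted p of 0.00428) were called.

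**Figure D5:**
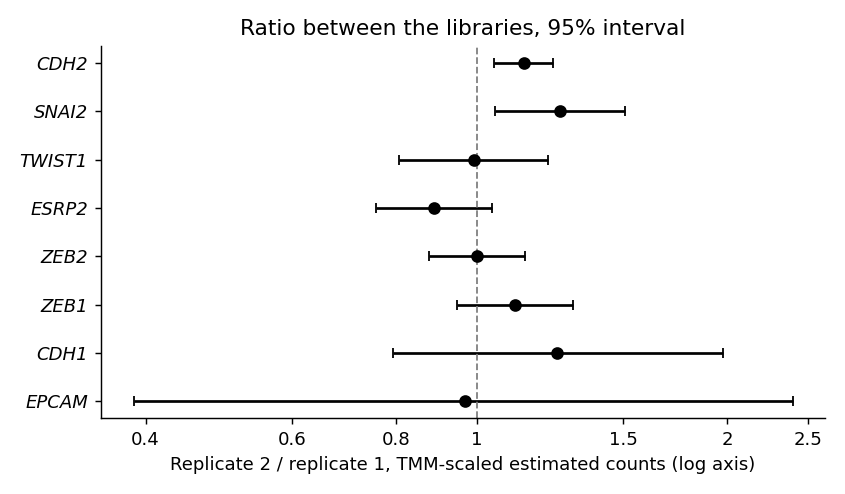
Ratio of replicate 2 to replicate 1 in TMM-scaled estimated counts on a log axis, with exact 95% intervals, for the 8 genes tested. The intervals of CDH2 and SNAI2 lie above 1, and those of EPCAM and CDH1 are the widest.

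Sharing of reads with other genes added little to these counts. Of the 10 genes 5 had whole estimated counts in both libraries. The posterior SD of the count, which describes the uncertainty of assigning reads, was at most 1.88 counts, for ZEB2 in replicate 1, where counting error alone was 21.4. Several members overlap other genes in the annotation. The sources used here do not say whether strand was used in counting, so a gene and its antisense partner may not be fully separated. CDH2 overlaps the unnamed gene ENSG00000227279 by 30814 bases on the other strand, which had 8.33 and 1.25 counts (TPM values of 2.85 and 0.44). ZEB1-AS1, on the other strand at the start of ZEB1, had TPM values of 5.41 and 2.95, and ZEB2-AS1 had 0 and 0.85. The pseudogene AC009951.1, which overlaps ZEB2 by 2967 bases on the same strand, had 19 and 12.5 counts. ESRP2 overlaps the end of NFATC3 on the other strand by 227 bases, and NFATC3 had 1335 and 1232 counts with posterior SDs of 21.5 and 27.6. The unnamed gene ENSG00000262160, which overlaps ESRP2 by 113 bases on the same strand, had 27.3 and 78.7 counts with posterior SDs of 23.4 and 29.0. In the authors' table of the pooled reads, the count of each of the 10 genes was within 1 count of the sum of the replicates.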

How the data were processed

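Poly(A)+ RNA of 2 HEK293T replicates was sequenced. The submitters' processing notes name Trimmomatic 0.36, STAR 2.6.1c and RSEM 1.3.1, with the GRCh37 build, and the methods name Ensembl release 87 genes and featureCounts. The columns are those that RSEM writes. Estimated counts, TPM and FPKM were deposited by the authors, together with a posterior SD of the count and interval bounds (scores deposited by the authors). The interval bounds were not used, because RSEM adds 1 count per transcript before it computes them, which lifts low genes. Other values deposited by the authors were the transcript lengths.

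Gene identifiers were matched to GENCODE release 44 on GRCh37 (96.1% of 57736), whose gene ends may differ from those the authors used. No row was matched for a few genes of the lists, among them MIR205 and PECAM1. Some listed genes are not reported here by name. Rounded estimated counts were scaled by TMM (edgeR 4.0.16, R 4.3.3) and compared by exact binomial tests (scipy 1.17.1). Genes with fewer than 10 counts in sum were left out, and p-values were adjusted by Benjamini-Hochberg over the rest. They measure only the difference between these samples, which may be technical. Levels between genes were compared in TPM with 1 added before log2. The test was checked on data simulated with counting error alone, which cannot show how it behaves where libraries also differ in other ways. Alternatives were thresholds, pseudocounts, FPKM, DESeq2 1.42.0 size factors, total counts, filters, single replicates and, chosen after the data were seen, rescaling to the longest transcript. The members and gene lists were chosen with earlier results of these data known. Genes named beside the members were the highest detected and highest undetected of each list and genes overlapping a member. Further genes named as examples, such as those with no counts, were chosen after their values were seen.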

Additional observations from a re-analysis of the deposited data

How the results depend on the processing

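No paired analysis was possible because there is only 1 group. The number of members detected was 6 to 9 under every threshold, unit and single replicate tried (8 in each replicate alone). The CDH2 minus CDH1 difference kept its direction and was 4.06 with a pseudocount of 0.1, 4.10 with 0.01, 3.54 on FPKM, 4.53 in CPM and 4.25 with the longest transcript, and 3.63 to 3.74 without either replicate. The ESRP2 minus ESRP1 difference was 5.31, 5.67, 3.37 and 4.71 in the first 4 of these settings, and 3.48 to 3.97 without either replicate. The ZEB2 minus ZEB1 difference was 0.49 ± 0.103 in CPM and 0.66 ± 0.0940 with the longest listed transcript that had a length (SD, n = 2). It was 0.0765 to 0.406 without either replicate. Of the further genes, 20 epithelial and 23 mesenchymal ones had a TPM of at least 0.1. At a TPM of at least 5 there were 6 mesenchymal and 8 epithelial ones. The numbers were equal at an FPKM of at least 1 (10 each) and at 10 or more estimated counts (14 each). The order of the lists thus changed with the threshold and the unit. Without either replicate the epithelial number was 13 in both cases and the mesenchymal 14 to 16. The number of members called different between the libraries was 0 with DESeq2 size factors, with total counts, without the filter and with whole counts only (2 members had an unadjusted exact p under 0.05 in the first 3 of these and 1 in the last). CDH2 is not among the genes with whole counts. Without a replicate that comparison has no value. What caused these shifts was not tested. Depth limits EPCAM, ESRP1 and GRHL2, which had 12 counts or fewer in each library.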
